A study of Mus musculus with 6 samples.

Results

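The 10 genes described here encode serotonin receptors (Htr1a, Htr1b, Htr1d, Htr1f, Htr2a, Htr2c, Htr3a, Htr4, Htr5a and Htr7), and they were taken by symbol from the 23282 gene entries of each count file, in which all 10 were listed. RNA was sequenced from forebrain hemispheres of wild-type C57BL/6J male mice, given as 8 to 10 weeks old, after the olfactory bulbs and cerebellum had been removed. Mice of the NCD group ate a normal chow diet and mice of the HFD group a high-fat diet, in which 60% of the calories came from fat, both for 10 days, and each group is represented by 3 libraries. A hemisphere joins cortex, hippocampus, striatum, thalamus and hypothalamus in 1 tube, so a change in 1 region is diluted by the others. In such bulk RNA, fewer cells that express a gene and less RNA per cell cannot be told apart. The sources used here do not say that each library came from a separate animal, and the p-values then measure the spread between these libraries.

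Serotonin is made by neurons of the brainstem raphe nuclei, whose axons reach the whole forebrain, while the receptors are made by the cells that receive the signal. The Htr1 and Htr5 receptors couple to Gi/o proteins and lower cyclic AMP, the Htr2 receptors couple to Gq and phospholipase C, and Htr4, Htr6 and Htr7 couple to Gs and raise cyclic AMP. Htr3a forms a cation channel that serotonin opens directly. In the forebrain the family is known for its part in mood, appetite and cortical excitability, and Htr2c in hypothalamic neurons is a known brake on food intake. The comparison of HFD with NCD asks whether any of these receptor mRNAs differed after a short period of high-fat feeding.

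Of the 10 receptor genes, Htr2a differed most between the diets. Its level was higher in each HFD library than in each NCD library, while the libraries of both diets overlapped for the other 9 genes. No receptor gene passed an adjusted p of 0.05. Htr2c, the receptor with the most reads, had a level on the HFD within 1.25-fold of that on the NCD, by the upper end of the 95% interval of the difference. 7 of the 10 genes passed the filter on low counts, and Htr1b, Htr2a and Htr4 did not.

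The total count was between 6842785 and 9689372 per library, and levels are given as CPM, which are counts relative to the library total after TMM scaling. A count of 3, taken as the floor, corresponded to between 0.316 and 0.431 CPM. The libraries hold markers of cortical layers (7 of 7 genes tested), hippocampus (5 of 5), striatum (8 of 9) and thalamus (5 of 5), and no marker of these lists was at 0 in all libraries. Drd2, a defining gene of striatal neurons, had 1 read in all 6 libraries together, whereas the striatal genes Adora2a and Penk had at least 141 and 1766 reads in each, so a count near 0 in these files does not show that a transcript was absent. HFD replicate 3 stood apart with 1262 CPM summed over 6 pituitary hormone genes, against at most 8.94 CPM in every other library, and it had the lowest sum of midbrain markers (11.3 CPM, against 24.4 to 38.4 CPM in the others). The sum of 5 erythroid genes was 420 to 519 CPM on the NCD and 543 to 823 CPM on the HFD.

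The receptors spanned a wide range of levels. Htr2c took between 50.8% and 58.8% of all reads of the 10 genes in a library (95% Wilson intervals from 46.7% to 54.8% and from 55.2% to 62.3% for these extremes, for counting error only). Its mean over the 6 libraries was 49.5 ± 5.47 CPM (SD), and it lay above the other receptors in 6 of 6 libraries. Htr1a (11.1 CPM), Htr5a (9.44 CPM) and Htr7 (8.81 CPM) followed, and neighbours among these 3 were in this order in 4 of 6 libraries, so their levels did not differ beyond the spread. Htr1f (3.7 CPM) was below Htr7 and above Htr1d (2.62 CPM) in 6 of 6 libraries. Htr3a (1.95 CPM), Htr2a (1.44 CPM) and Htr4 (1.12 CPM) came next, and Htr2a was above Htr4 in 4 of 6 libraries. Reads of these libraries start near the poly(A) tail, so the CPM of a gene was not divided by its length. Per kilobase of annotated transcript Htr2c stayed first (10.6 CPM per kilobase) and Htr1b last (0.0114 CPM per kilobase), while Htr7 (2.88 CPM per kilobase) moved ahead of Htr1a (2.47 CPM per kilobase) and Htr4 (0.881 CPM per kilobase) ahead of Htr2a (0.256 CPM per kilobase).

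**Figure D1:**
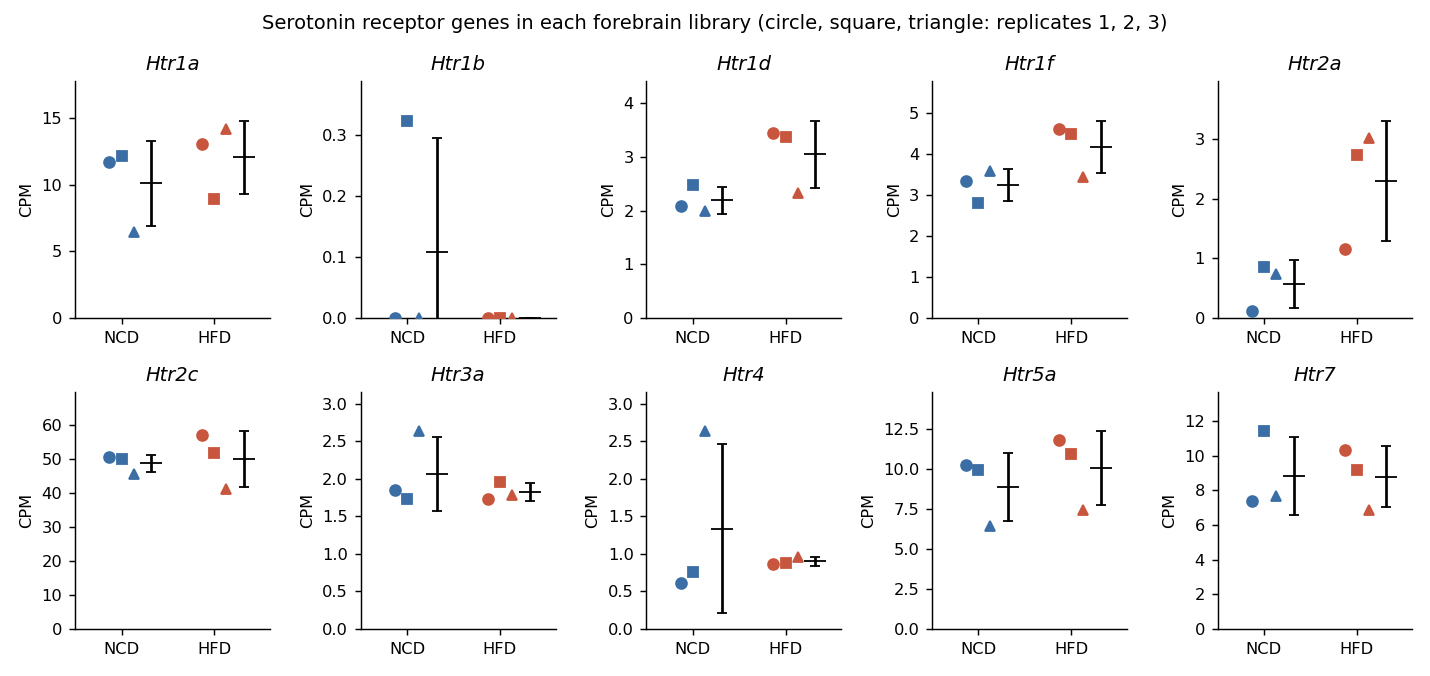
Level in CPM (linear axis from 0, a scale of its own per panel) of the 10 receptor genes in each library, with NCD in blue and HFD in red; circles, squares and triangles are replicates 1, 2 and 3, and black bars are the mean and SD of 3 libraries, cut at 0. The HFD libraries of Htr2a (1.15 to 3.02 CPM) lie above its NCD libraries (0.123 to 0.862 CPM), and in each other panel the diets overlap.

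Because the libraries read the 3′ ends of transcripts, the annotated end of a gene is the part that its counts depend on. The last 30 bases of the transcript that reaches farthest were taken from GENCODE vM21 on GRCm38 for 9 of the genes, and searched on the transcript strand for the polyadenylation signal AATAAA or its variant ATTAAA, of which the match nearest to the 3′ end is in capitals. The ends of 4 genes are shown: Htr2a, which differed most, Htr2c with the most reads, Htr1b with almost none, and Htr5a, which holds neither signal in this window.
Htr2a: gcaAATAAAgtccacttaaaaaaaaaaaaa
Htr2c: cttaatttattaaaatttATTAAAcgatga
Htr1b: aAATAAAagtccttttttgtgttctaaaaa
Htr5a: taccctttaaaatattttttaaattacgtg

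These windows lie at chr14:74709465-74709494 on the plus strand for Htr2a, chrX:147197248-147197277 on the plus strand for Htr2c, chr9:81628291-81628320 on the minus strand for Htr1b and chr5:27855059-27855088 on the plus strand for Htr5a. A signal was found in 8 of the 9 genes, where 62.6% of 21866 protein-coding genes held one in a window of the same length. Htr1b carries AATAAA and had 3 reads in all libraries, while Htr5a without a match had 472. Exons of D430036J16Rik overlap Htr1b on the other strand, and the use of strand in the counting is not given in the sources used here. For the other 9 genes no exon of another annotated gene overlapped.

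Htr2a encodes the Gq-coupled receptor at which psychedelic drugs and many antipsychotics act, and its locus in GRCm38 is chromosome 14, 74640840 to 74709494. Htr2a had 0.123, 0.862 and 0.737 CPM in NCD replicates 1, 2 and 3 and 1.15, 2.73 and 3.02 CPM in HFD replicates 1, 2 and 3. NCD replicate 1 was lowest with 1 read, HFD replicate 1 was nearest to the NCD range with 8 reads, and the other HFD libraries had 25 and 22 reads. In the fit of all genes without a filter, the log2 fold change of Htr2a was 1.95, with a standard error (SE) of 0.61. This is a 3.87-fold higher level, with a 95% interval from 1.68-fold to 8.91-fold. The quasi-likelihood test of edgeR gave an unadjusted p of 0.00153, and an adjusted p (Benjamini-Hochberg) of 0.434 over all genes with a count, of which 0.127% had an adjusted p under 0.05. Over the alternatives and with each library left out, the adjusted p of Htr2a was never below 0.378. An exact two-sided permutation test over the 20 assignments of the libraries gave p = 0.1, and no smaller value can be reached with 3 libraries per diet. As background, 4.84% of all genes in this fit had an unadjusted p under 0.05, 2.12% with the higher level on the HFD, and for 4.02% of genes all HFD libraries lay above all NCD libraries. Of the 10 receptor genes, 1 (Htr2a) was in each of these counts.

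The share of receptor reads taken by Htr2a was 0.14%, 0.932% and 0.946% among NCD libraries (Wilson intervals from 0.0247% to 0.789%, 0.473% to 1.83% and 0.459% to 1.94%). Among HFD libraries it was 1.1%, 2.89% and 3.72% (Wilson intervals from 0.56% to 2.16%, 1.96% to 4.23% and 2.47% to 5.57%). The interval of HFD replicate 1 overlaps all 3 NCD intervals, and the intervals of HFD replicates 2 and 3 lie above all 3 NCD intervals. Within a diet, the counts of Htr2a varied more than counting alone gives, with a chi-square of 2.67 per degree of freedom. When single libraries were omitted, the estimate for Htr2a stayed on the log2 scale between 1.52, without NCD replicate 1, and 2.33, without NCD replicate 2. It was 1.73 without HFD replicate 3, the library with pituitary transcripts. In 5 of these 6 fits Htr2a passed the count filter, through its HFD libraries, so they differ in form from the fit of all genes and are given as values alone. The erythroid sum given above did not overlap between the diets either, and like Htr2a it was higher on the HFD. Within the HFD the order differed, with erythroid sums of 698, 543 and 823 CPM in replicates 1, 2 and 3. In edgeR 4 of 5 erythroid genes had an unadjusted p under 0.05 (log2 fold changes of 0.49 for Hba-a1, 0.53 for Hba-a2, 0.56 for Hbb-bs and 0.68 for Hbb-bt). The background for this direction was 1.68% of the genes that passed the filter. The part of erythroid transcripts in the Htr2a result was not tested. The cortical layer markers, from the region where Htr2a is best known, had a summed level of 493 to 532 CPM on the NCD and 491 to 519 CPM on the HFD. In edgeR 0 of 7 had an unadjusted p under 0.05, beside 3.69% of all genes that passed the filter. The part of cortical tissue in the Htr2a result was not tested.

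**Figure D2:**
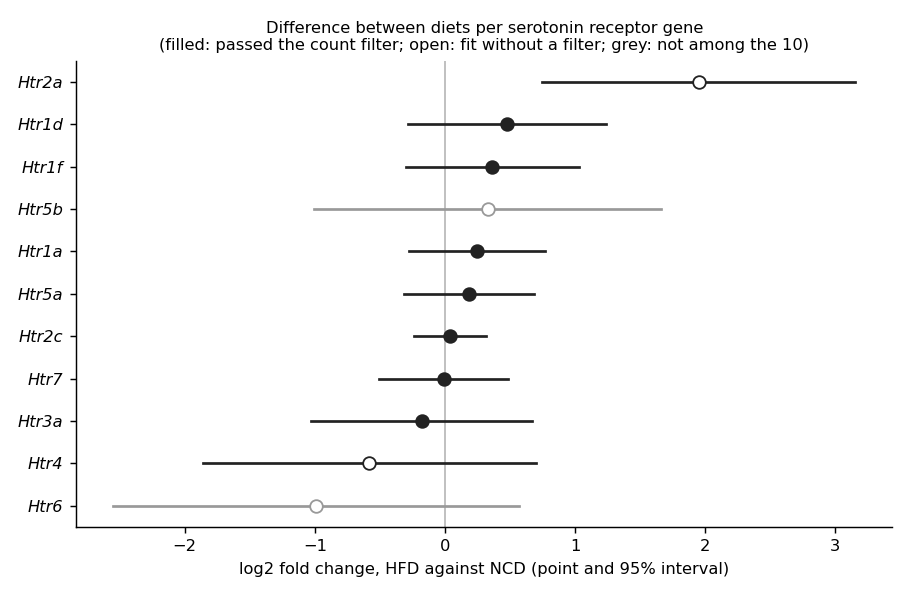
Log2 fold change (HFD against NCD) of each receptor gene with enough reads for a fold, where points are the estimates and lines their 95% intervals; filled points passed the count filter, open points come from the fit without a filter, and grey marks receptor genes outside the 10. The interval of Htr2a (0.75 to 3.16) lies above 0 and the intervals of the others cross 0.

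Htr2c encodes the other Gq-coupled receptor among the 10, the one that acts on feeding, and its mRNA is also abundant in choroid plexus. It lies on chromosome X from 146962513 to 147197277. Htr2c had 50.6, 50.0 and 45.8 CPM in NCD replicates 1, 2 and 3 and 57.2, 52.0 and 41.2 CPM in HFD replicates 1, 2 and 3, so the highest and the lowest value were both from the HFD. For Htr2c the log2 fold change was 0.04 (SE 0.13, edgeR adjusted p of 0.989), and the 95% interval ran from a fold of 0.847 to 1.25. Hypothalamic markers summed to 70.1 to 111 CPM under NCD, to 72.3 and 112 CPM in HFD replicates 1 and 2 and to 29.1 CPM in HFD replicate 3. This last library had the lowest Htr2c level, and in it the orexin gene Hcrt had 7 reads against 92 to 169 elsewhere. Pomc of the same list went the other way, with 89 reads (12.2 CPM) in this library against 11 to 43 reads elsewhere. This is also the library with pituitary transcripts, and their part in its Pomc count was not tested. Of the 9 hypothalamic genes 6 were tested, and 0 had an unadjusted p under 0.05. Without HFD replicate 3 the log2 fold change of Htr2c was 0.16, and the part of hypothalamic tissue in its level was not tested. Choroid plexus markers summed to 1507 to 1871 CPM on the NCD and 1573 to 1719 CPM on the HFD. 1 of these 11 genes, the potassium channel gene Kcnj13, had an unadjusted p under 0.05, with a log2 fold change of 0.59. Of the 7 receptor genes that passed the filter, 0 had an unadjusted p under 0.05, as against 3.69% of the 13771 genes tested, 0 had an adjusted p under 0.05, where the background was 0%, and 0 had libraries that did not overlap between the diets, beside 8.83% of the genes tested.

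The 5 genes of Gi/o-coupled receptors summed to 27.3, 27.7 and 18.4 CPM under NCD and 32.9, 27.7 and 27.3 CPM under HFD. NCD replicate 3 was lowest and HFD replicate 1 highest, and the remaining values of both diets lay close together. Htr1a, on raphe neurons an autoreceptor and in hippocampus and cortex a postsynaptic receptor, lies on chromosome 13 from 105443639 to 105448122. It had 11.7, 12.2 and 6.42 CPM on the NCD and 13.1, 8.94 and 14.1 CPM on the HFD. Its log2 fold change was 0.25 (SE 0.25, 95% interval from -0.27 to 0.77), and without NCD replicate 3, the lowest library, it was 0.0028. Hippocampal markers, which mark the region where Htr1a is most abundant, summed to 54.1 to 65.4 CPM on the NCD and 52.9 to 64.2 CPM on the HFD.

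Htr5a, expressed by cortical and hippocampal neurons, lies on chromosome 5 from 27842149 to 27855088 and was, like Htr1a, lowest in NCD replicate 3 among the NCD libraries. It had 10.2, 9.91 and 6.42 CPM on the NCD and 11.8, 10.9 and 7.41 CPM on the HFD. The log2 fold change was 0.19 (SE 0.24), and it was -0.0017 without NCD replicate 3. Both Htr1a and Htr5a were thus lowest of all 6 libraries in NCD replicate 3, and for both this library set the sign or the size of the difference between the diets. In the same library the summed level of 5 oligodendrocyte genes was also lowest, at 7291 CPM, against 8213 to 8875 CPM in the others.

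Htr1d and Htr1f, receptors for the triptan drugs of migraine, had the largest estimates among the genes that passed the filter. Htr1d, on chromosome 4 from 136423524 to 136444398, had 2.09, 2.48 and 2.0 CPM on the NCD and 3.45, 3.38 and 2.33 CPM on the HFD. Its log2 fold change was 0.48 (SE 0.36, edgeR adjusted p of 0.979), with a 95% interval from a fold of 0.822 to 2.36. Htr1f, on chromosome 16 from 64924729 to 65105854, had 3.33, 2.8 and 3.58 CPM on the NCD and 4.6, 4.47 and 3.43 CPM on the HFD, with a log2 fold change of 0.37 (SE 0.31). In both genes HFD replicates 1 and 2 lay above all NCD libraries, and HFD replicate 3 fell within the NCD range. The exact permutation p was 0.2 for each. Counts of both genes varied within a diet by no more than counting gives (chi-square of 0.609 and 0.589 per degree of freedom). They had 131 and 185 reads in all, and what limits these 2 estimates was not tested.

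Htr1b, the terminal autoreceptor that is known from striatal and raphe axons, had 0, 3 and 0 reads in the NCD libraries and 0 reads in each HFD library. A count of 0 in a library allows up to 3 reads, so the level of Htr1b was at or under the floor on both diets and no fold is given.

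**Figure D3:**
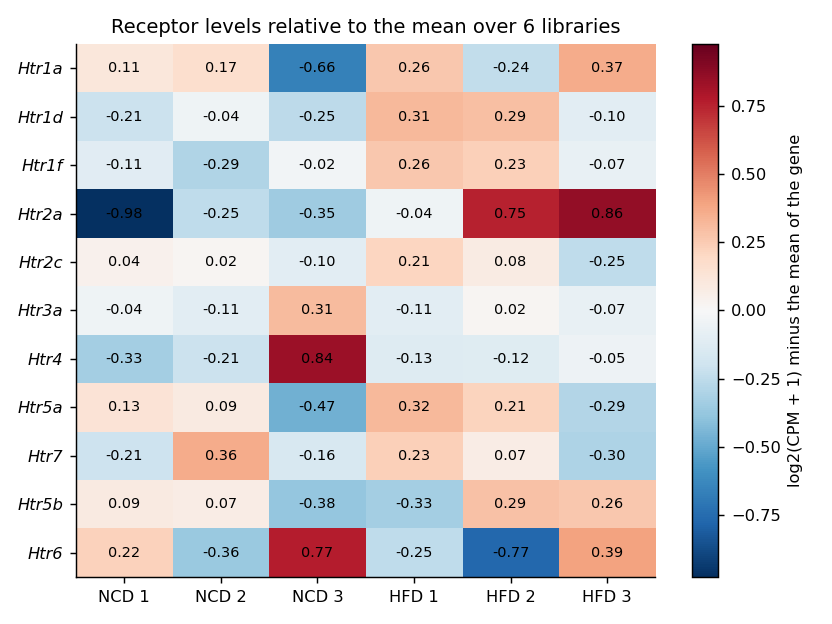
Level of each receptor gene in each library as log2(CPM + 1) minus the mean of that gene over the 6 libraries; rows are 9 of the 10 genes (all but Htr1b) with Htr5b and Htr6, columns are libraries, and red is above and blue below the mean. Htr2a changes from blue in the NCD columns to red in HFD 2 and HFD 3. Htr1a, Htr1d, Htr5a and Htr5b have their lowest value in the column NCD 3, and Htr3a, Htr4 and Htr6 their highest.

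Among the Gs-coupled receptors, Htr7, known from thalamus and hippocampus and on chromosome 19 from 35958734 to 36057507, had 7.39, 11.4 and 7.69 CPM on the NCD and 10.3, 9.16 and 6.86 CPM on the HFD. The means of the diets were 8.83 ± 2.25 and 8.79 ± 1.77 CPM (SD, n = 3 each). The log2 fold change was -0.0099 (SE 0.24), and the 95% interval from a fold of 0.703 to 1.4 leaves room for changes of that size in either direction. Htr4, a receptor of striatal and hippocampal neurons, was under the filter. It had 0.616, 0.754 and 2.63 CPM on the NCD and 0.862, 0.872 and 0.961 CPM on the HFD. The 3 HFD libraries were within 0.1 CPM of each other, and NCD replicate 3 with 25 reads stood above the other 5 libraries with 5 to 8 reads. The log2 fold change of Htr4 was -0.58 (SE 0.65, unadjusted p of 0.373 in the fit without a filter), and without NCD replicate 3 it turned to 0.38.

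The channel gene Htr3a, which marks a class of cortical interneurons, lies on chromosome 9 from 48899213 to 48911099. Its level was 1.85, 1.72 and 2.63 CPM on the NCD and 1.72, 1.96 and 1.78 CPM on the HFD. NCD replicate 3 was highest, and the other 5 libraries lay between 1.72 and 1.96 CPM. Its log2 fold change was -0.18 (SE 0.40), and 0.04 without NCD replicate 3. Markers of the Htr3a class of interneurons summed to 1032 to 1102 CPM on the NCD and 1057 to 1191 CPM on the HFD. Of these markers 0 of 10 had an unadjusted p under 0.05 in edgeR, beside 3.69% of all genes tested.

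The 4 remaining receptor genes of the files did not pass the filter. Htr6, a Gs-coupled receptor of striatal neurons, had 8, 3 and 18 reads under NCD and 3, 0 and 9 under HFD, and like Htr4 it was highest in NCD replicate 3. Its log2 fold change was -0.99 (SE 0.79, 95% interval from -2.55 to 0.57), and it was -0.26 without NCD replicate 3 and -2.39 without HFD replicate 3. Striatal markers did not share this pattern, since their sum in NCD replicate 3 was the lowest of the 6 libraries (977 CPM, against 1008 to 1082 CPM). Htr5b had 51 reads in all and a log2 fold change of 0.33 (SE 0.68). Htr2b and Htr3b had 5 and 9 reads in all, with means at or under the floor on both diets, and exons of Psmd1 overlap Htr2b on the other strand.

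**Figure D4:**
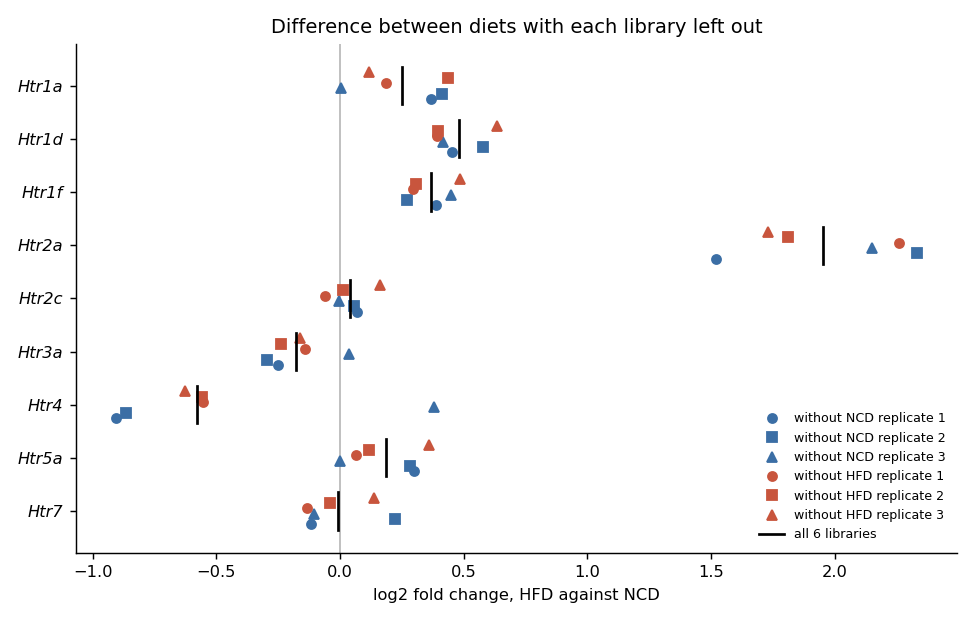
Log2 fold change (HFD against NCD) of 9 receptor genes with all 6 libraries (black line) and with each library left out in turn (blue for NCD, red for HFD; circles, squares and triangles for replicates 1, 2 and 3). Htr2a stays between 1.52 and 2.33, while leaving out NCD replicate 3 (blue triangle) brings Htr1a and Htr5a to about 0 and moves Htr4 from -0.58 to 0.38.

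Over the 7 receptor genes that passed the filter, the median log2 fold change was 0.19, beside -0.0033 over all 13771 genes tested, and 5 of 7 were above 0, beside 49.2% of all genes. This median was 0.0028 without NCD replicate 3. The sum of all 10 receptor genes averaged 86.1 ± 7.43 CPM in the NCD libraries and 93.2 ± 11.6 CPM in the HFD libraries (SD, n = 3 each), a difference smaller than the spread between libraries.

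Among the genes that supply serotonin, the transporter gene Slc6a4, the enzyme gene Tph2 and the cofactor gene Gch1 had lower levels on the HFD before adjustment. Of 11 listed genes for synthesis, storage, reuptake and breakdown, 10 passed the filter, and 3 had a lower level on the HFD at an unadjusted p under 0.05, where the background for this direction was 2% of genes. None of them passed an adjusted p of 0.05 in this fit. The 3 lower genes passed the filter through their NCD libraries, where their levels were higher. Their number beside the background is therefore given as a value alone. Slc6a4, the serotonin transporter of raphe axons, had 11, 36 and 54 reads under NCD and 15, 3 and 1 under HFD. Its log2 fold change was -2.13 (SE 0.67, edgeR unadjusted p of 0.00553), -3.85 without HFD replicate 1, and the unadjusted p from DESeq2 was 0.0685. Tph2, the rate-limiting enzyme of serotonin synthesis in neurons, had 11, 34 and 48 reads under NCD and 12, 11 and 7 under HFD, with -1.39 (SE 0.48, edgeR unadjusted p of 0.0105) as the log2 fold change. In both genes NCD replicate 1 was lower than HFD replicate 1, so the diets overlapped. Gch1, which makes the cofactor of tryptophan and tyrosine hydroxylases, had 27, 37 and 31 reads under NCD and 12, 14 and 4 under HFD, without overlap. Over all genes tested, 8.83% were without overlap, in either direction. For Gch1 the log2 fold change was -1.46 (SE 0.42, edgeR unadjusted p of 0.00316). With edgeR the adjusted p was 0.979 for each of the 3 genes, and in the fit without a filter it was 0.0152 for Slc6a4.

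Neurons of the midbrain and brainstem express these 3 genes. Of 6 midbrain markers 5 were tested, and 1 of them, Th, had an unadjusted p under 0.05 (log2 fold change of -0.85), while Pax7 had an estimate of 0.54. The summed midbrain level overlapped between the diets, with 24.4 to 38.4 CPM under NCD and 11.3 to 29.6 CPM under HFD. HFD replicate 3, with the lowest midbrain sum, also had the lowest counts of Slc6a4, Tph2 and Gch1. Without this library the log2 fold changes were -1.65 for Slc6a4, -1.23 for Tph2 and -1.12 for Gch1, each with an unadjusted p under 0.05 in edgeR, and without NCD replicate 3 that of Tph2 was -0.97 with an unadjusted p of 0.0901. Liver markers were also lower on the HFD for 4 of 5 genes at an unadjusted p under 0.05 (log2 fold changes of -2.19 for Alb, -1.03 for Apoa1, -2.11 for Fgb and -2.23 for Ahsg), with Fgb and Ahsg not overlapping between the diets and Ahsg at 0 in HFD replicate 3. Their summed level was 1029 to 1266 CPM under NCD and 1064 to 1204 CPM under HFD, most of it Ttr, which choroid plexus also makes. Liver is known to express Gch1, and the part of these transcripts in the Gch1 difference was not tested. The raphe gene Fev had at most 4 reads in a library. How much of the brainstem each hemisphere held is not known from the labels, and its part in these differences was not tested. The other 7 genes tested did not reach an unadjusted p of 0.05. On the log2 scale their differences ran from -0.25 for Maob, -0.24 for Ddc and -0.21 for Slc18a2 upwards, so that the median of the list was -0.23. Maoa, which breaks serotonin down, was at a log2 fold change of 0.01 (SE 0.12), and Qdpr, the gene of the list with the most reads, one of 0.0044 (SE 0.11).

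**Figure D5:**
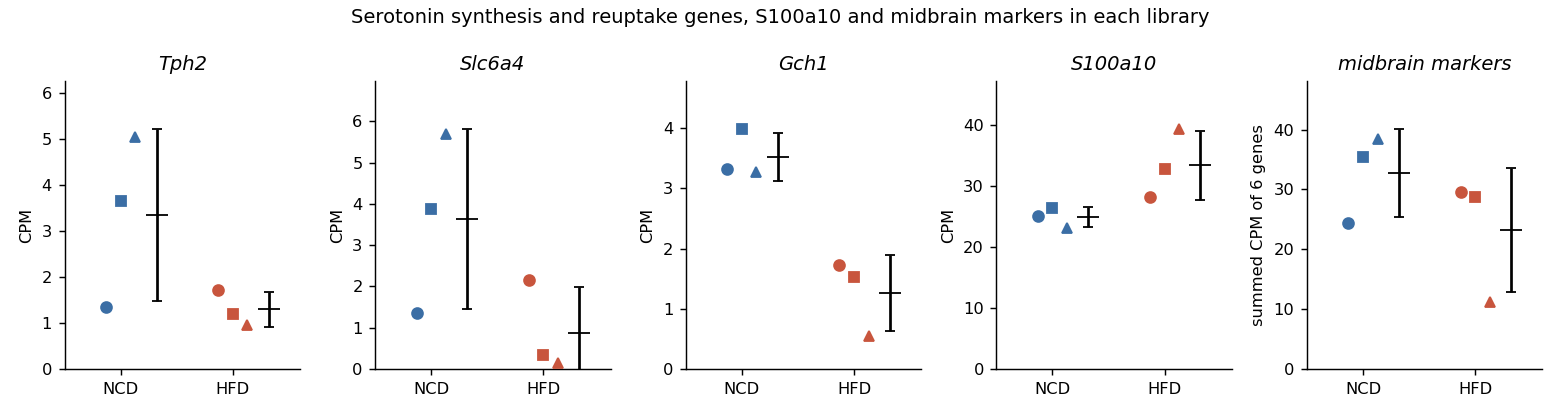
Level in CPM (linear axis from 0) of Tph2, Slc6a4, Gch1 and S100a10 and the summed CPM of 6 midbrain marker genes in each library, with NCD in blue and HFD in red; circles, squares and triangles are replicates 1, 2 and 3, and black bars are the mean and SD of 3 libraries, cut at 0. Gch1 and S100a10 separate the diets, while NCD replicate 1 lies within the HFD range of Tph2 and Slc6a4, and HFD replicate 3 is lowest in each panel except that of S100a10, where it is highest.

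Downstream of the receptors, the transcripts of the signalling proteins had medians near 0 between the diets. Of 9 genes of the Gi/o branch (Gi/o proteins, GIRK channel subunits and a regulator), 9 were tested with a median log2 fold change of -0.07. For the Gq branch 9 of 10 genes were tested, with a median of -0.0070, and for the Gs branch 11 of 11, with a median of -0.08. In these 3 lists edgeR gave 0 genes with an unadjusted p under 0.05, beside 3.69% of all genes tested. After adjustment it gave 0, where the background was 0%. The log2 fold change was above 0 for 2 of 9, 4 of 9 and 3 of 11 genes tested, beside 49.2% of all genes tested. The gene with the most reads of each branch had a log2 fold change of -0.12 for Gnao1, -0.08 for Prkcb and 0.0038 for Gnas, with SEs of 0.11, 0.09 and 0.09.

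Of 9 genes for receptor scaffolds, arrestins, a chaperone and the RNA editing enzymes that modify Htr2c mRNA, 9 were tested, and the median log2 fold change was -0.07. S100a10, also called p11, is an adaptor that binds Htr1b and Htr4 and helps to carry them to the cell surface. It had 204, 246 and 220 reads under NCD and 196, 301 and 287 under HFD, or 25.1, 26.5 and 23.2 CPM and 28.2, 32.8 and 39.4 CPM, so all HFD libraries lay above the NCD libraries. The log2 fold change was 0.42 (SE 0.15, edgeR unadjusted p of 0.0098, adjusted p of 0.979), and S100a10 was the 1 of the 9 genes with a higher level at an unadjusted p under 0.05, where the background for this direction was 1.68% of genes. It was 0.30 without HFD replicate 3, the library with pituitary transcripts, and the unadjusted p was then 0.045. Over all genes tested, 8.83% did not overlap between the diets, in either direction. In this list Arrb2 did not overlap either, with the lower level on the HFD (log2 fold change of -0.34, SE 0.23). The editing enzyme genes Adar and Adarb1 had log2 fold changes of -0.07 and -0.13, and the scaffold gene Dlg4, which had the most reads of this list, one of 0.06.

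Genes with the profile nearest to a receptor were found by the mean absolute difference of log2(CPM + 1), centred on each gene's mean, over the 6 libraries. For Htr2a these were Snora81, Exo5 and Zfp595, with differences of 0.212, 0.256 and 0.264, beside a median of 0.56 over 13771 genes. For Htr2c they were 2810468N07Rik, Cops7a and Spata2, with differences between 0.023 and 0.026, beside a median of 0.184. With so many genes and 6 libraries some profiles lie close by number alone, and this likeness is given as a description.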

How the data were processed

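RNA-Seq was analysed for 3 NCD and 3 HFD libraries. The authors prepared QuantSeq 3′ libraries, trimmed adaptors, mapped the reads to mm10 with Bowtie2 and used Bedtools to count unique and multiple alignments. The deposited files hold these counts per gene symbol without normalization. The annotation and the use of strand are not given in the sources used here. Groups came from the sample titles.

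edgeR 4.0.16 (in R 4.3.3) was run on the counts. filterByExpr, set to a count of 10 and a total of 15, retained 13771 genes. Libraries were scaled with TMM, and the diets were compared with glmQLFit and glmQLFTest, without covariates. Adjustment was by Benjamini-Hochberg over all genes tested. Receptor genes under the filter took their values from the fit of the 18936 genes with a count, at the same scaling. SEs were obtained from the F statistic. A fold was given only where the mean count of a diet exceeded 3. Of the entries, 79 share a symbol and were kept apart. Alternatives were DESeq2 1.42.0, quantile normalization of log2(CPM + 1) with limma 3.58.1, scaling by library size, omission of the filter, a stricter filter (10 counts or more in each library), removal of the 3 genes with over 2% of counts, a replicate block, and leaving out single libraries. The fits with edgeR, DESeq2 and limma were first tested on simulated counts. Besides the receptors, the named genes are those of each list with an unadjusted p under 0.05 or the most reads, and the 3 genes with the profile nearest to Htr2a or Htr2c, and any others were chosen after their values were seen. The members and lists were chosen with earlier results of these data known. Positions and transcript ends come from GENCODE vM21. Figures were drawn with matplotlib 3.10.9 in Python 3.11.15.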

Additional observations from a re-analysis of the deposited data

How the results depend on the processing

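Over 13 alternatives, 0 receptor genes had an adjusted p under 0.05 in each. The count with an unadjusted p under 0.05 was 1 higher, Htr2a, and 0 lower, and with at least 10 counts in every library it was 0 higher, because Htr2a is then not tested. In the other genes of the serotonin pathway lists, 0 had an adjusted p under 0.05, and 1 (Slc6a4) without a filter, with a log2 fold change of -2.12. At an unadjusted p under 0.05, 1 gene was higher and 3 lower. With at least 10 counts in every library 0 were lower, because Slc6a4, Tph2 and Gch1 are then not tested. With each library left out these counts ran from 1 to 2 higher and from 2 to 4 lower.

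After quantile normalization, on the log2(CPM + 1) scale, which understates changes of low genes, the log2 fold change was 1.08 for Htr2a, 0.0089 for Htr7 and -0.018 for Qdpr, and with library size alone it was -0.0175 for Qdpr and -0.015 for Gnas. With each library left out the range crossed 0 for Htr2c (-0.062 to 0.16), Htr3a (-0.30 to 0.037), Htr4 (-0.91 to 0.38), Htr5a (-0.0017 to 0.36), Htr7 (-0.13 to 0.22), Qdpr (-0.11 to 0.068), Gnas (-0.042 to 0.051), Gnao1 (-0.21 to 0.0039) and Dlg4 (-0.0022 to 0.16). The cause was not tested. With the replicate number as a block, Qdpr turned to -0.0024 and Htr2a had 2.03, and no call changed. Deviations from the diet means correlated by -0.03, 0.05 and -0.06 between libraries of the same number. Between libraries of different numbers they correlated by -0.06 to 0.08. With 3 libraries per diet these values cannot show whether the numbers pair the libraries. Depth limits Htr1b, Htr2b and Htr3b, for which no fold is given.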
